A study of Mus musculus with 4 samples.

Results

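The 10 genes described here encode costimulatory and checkpoint ligands, the surface proteins with which macrophages and other antigen-presenting cells raise or restrain T cell responses. They were chosen by symbol: Cd80, Cd86, Cd40, Cd83, Cd274, Pdcd1lg2, Icosl, Icam1, Vsir and Havcr2. All 10 of the 10 had a row for each of the 4 libraries, out of 17532 genes listed for either cell subset, and all 10 passed the filter on low values in every comparison. The libraries came from wild type C57BL/6 male mice at postnatal day 28, whose CD45+ Cx3cr1+ periosteal cells were sorted as ACE+ or as CD74+. Periosteum is the membrane that covers bone. Each subset was kept in DMEM medium with 10% serum and M-CSF at 10 ng/ml, a growth factor of macrophages, and for 24 h received either 500 ng/ml of recombinant periostin or PBS as vehicle. Periostin is a secreted matrix protein. Each of the 4 combinations of subset and treatment held 1 library, and the labels do not say how many mice or which sorts stood behind it.

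A T cell needs a second signal beside its antigen receptor. CD80 and CD86 give it through CD28 and withdraw it through CTLA4, ICOSL acts through ICOS, and CD40 on the antigen-presenting cell receives CD40 ligand from the T cell. ICAM1 holds the cells together by binding the integrin LFA-1, and CD83 keeps MHC class II and CD86 at the cell surface. PD-L1 (Cd274), PD-L2 (Pdcd1lg2) and VISTA (Vsir) restrain T cells, the first 2 through PD-1. TIM-3 (Havcr2) is a checkpoint receptor that myeloid cells also carry. On macrophages many of these proteins are raised by inflammatory signals and interferon.

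Depth ran from 11846312 reads in CD74+ periostin to 19798150 in ACE+ periostin. Levels are scaled counts per 1000000 (CPM), in which 1 read was worth 0.0491 to 0.0897. Macrophage markers were present in all 4 libraries, with all 12 of the list detected and sums of 8778, 9166, 9115 and 9132 CPM. Lyz2 led these sums, at 5718, 6004, 4386 and 4390 CPM, and single markers went different ways. Adgre1 stood at 54.5, 39.7, 34.9 and 19.4 CPM, and Cd68 at 576, 675, 1191 and 1327. Groups of 4 values are given in the order of ACE+ cells without and with periostin, then CD74+ cells without and with it. Markers of other cells were there too. The 13 neutrophil markers, led by S100a8 and S100a9, summed to 23874, 28776, 12911 and 20474 CPM. B cell markers, led by Ighm, summed to 1363, 1343, 126 and 102. Endothelial markers, led by Vwf, summed to 947, 992, 585 and 501, and dendritic cell markers, led by Ccr7, to 489, 500.1, 428 and 499.8. T and NK cell markers stayed at 18.6, 29.3, 13.9 and 11.6. Since these are bulk libraries, a lower level can come from fewer cells of a type or from less RNA per cell, and the 2 cannot be told apart.

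Vsir was the most abundant of the 10 transcripts per unit of length in every library, whether length was the deposited one or that of all annotated exons. On the scale of CPM per kilobase of deposited gene length it stood at 58.4, 59.4, 42.4 and 42.2. In ACE+ vehicle it was followed by Icam1 at 24.6, Icosl at 17.9, Cd274 at 13.3 and Cd83 at 11.7 CPM per kilobase. Below them came Pdcd1lg2 at 6.94, Havcr2 at 6.50, Cd80 at 5.61, Cd40 at 2.65 and Cd86 at 1.88. Among neighbours in this order, Cd274 and Cd83, Pdcd1lg2 and Havcr2, Havcr2 and Cd80, and Cd40 and Cd86 had overlapping 95% Poisson intervals of their reads. ACE+ periostin had the same 5 genes at the top. In CD74+ vehicle Cd274 moved up to second place at 30.3 CPM per kilobase and Pdcd1lg2 down to the last place at 1.20, though its interval overlapped that of Cd40. In CD74+ periostin the last place was taken by Cd80, at 0.844, with an interval that overlapped that of Pdcd1lg2. With the length of all annotated exons Icosl moved down the order in every library and Icam1 in both CD74+ libraries, and Cd80 dropped to 4.47 CPM per kilobase in CD74+ vehicle and kept the last place in CD74+ periostin at 0.388.

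**Figure D1:**
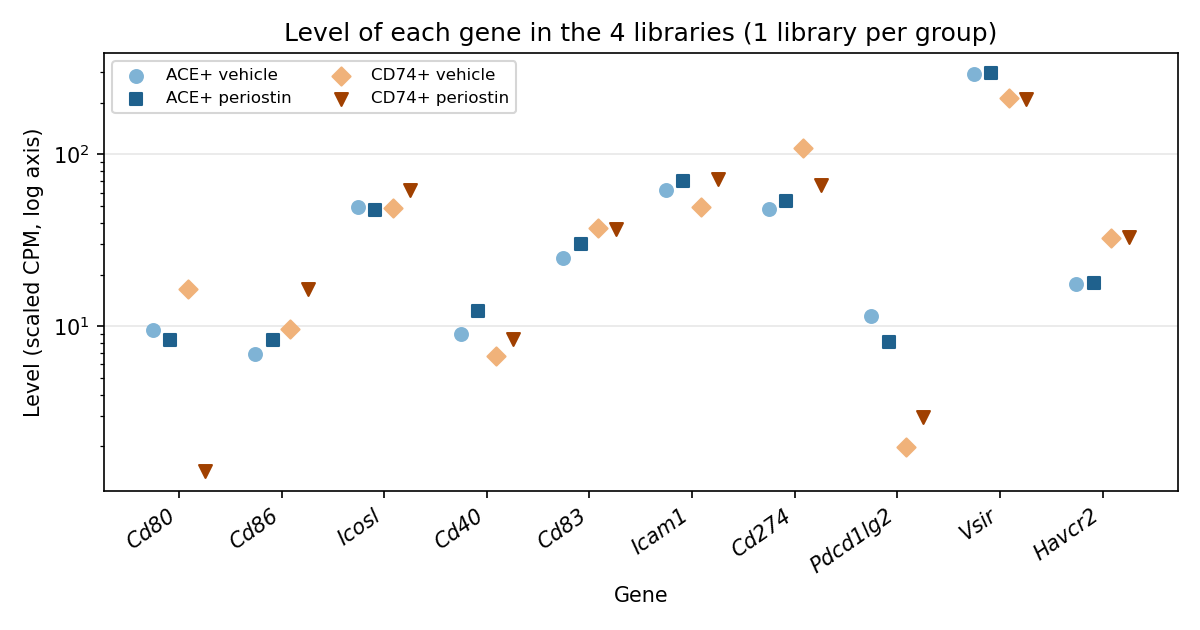
Level of each of the 10 genes (x axis) in scaled CPM on a log axis (y axis), with 1 point per library and 1 library per group. Cd80 in CD74+ periostin (1.44 CPM) and Pdcd1lg2 in both CD74+ libraries (1.97 and 2.96 CPM) lie far below their levels in the other libraries, and Vsir lies between 211 and 298 CPM.

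Promoter sequence is shown for Cd80, Pdcd1lg2 and Havcr2, 3 of the genes with the differences described below, and for Icam1, the most abundant of the costimulatory and adhesion genes per deposited length. RefSeq sequences on the build GRCm38.p6 were matched by symbol for 7 of the 10 genes. Each line gives the 250 bases before the start that RefSeq annotates, on the plus strand. For Cd80 this start lies inside the gene as GENCODE draws it, whose first base is 38455561, so positions there are counted from the RefSeq start. Capitals mark letters that match 1 of 5 motifs searched on both strands. Among them were the STAT motif TTCNNNGAA (GAS), the paired interferon regulatory factor motif (GAAA, any 2 bases, GAAA), the AP-1 motif TGANTCA and the PU.1 core GAGGAA. The last was the NF-kB consensus (GGG, then A or G, any 2 bases, 2 of C or T, then CC). Only exact matches were marked, so a site that differs from these letters by 1 base was not. No marked match overlapped another.
Cd80, chr16:38458683-38458932: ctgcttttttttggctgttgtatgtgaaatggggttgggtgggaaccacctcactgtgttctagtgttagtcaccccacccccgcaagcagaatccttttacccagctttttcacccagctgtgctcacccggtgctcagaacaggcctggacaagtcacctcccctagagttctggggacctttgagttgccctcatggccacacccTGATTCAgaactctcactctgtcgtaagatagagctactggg
Pdcd1lg2, chr19:29410669-29410918: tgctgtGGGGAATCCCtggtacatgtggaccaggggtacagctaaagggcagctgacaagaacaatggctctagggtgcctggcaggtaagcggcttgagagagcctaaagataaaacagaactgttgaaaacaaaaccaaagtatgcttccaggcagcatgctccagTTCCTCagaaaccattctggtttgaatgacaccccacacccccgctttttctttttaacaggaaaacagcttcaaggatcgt
Havcr2, chr11:46454681-46454930: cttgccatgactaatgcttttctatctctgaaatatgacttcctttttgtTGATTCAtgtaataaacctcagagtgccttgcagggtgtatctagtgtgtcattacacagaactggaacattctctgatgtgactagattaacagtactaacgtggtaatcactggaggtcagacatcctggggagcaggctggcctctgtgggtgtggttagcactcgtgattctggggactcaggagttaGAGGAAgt
Icam1, chr9:21015690-21015939: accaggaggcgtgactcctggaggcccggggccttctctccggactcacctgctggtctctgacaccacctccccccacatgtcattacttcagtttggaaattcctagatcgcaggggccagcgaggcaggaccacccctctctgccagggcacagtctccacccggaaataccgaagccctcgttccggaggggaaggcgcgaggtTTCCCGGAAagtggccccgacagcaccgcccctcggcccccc
The AP-1 letters stood in Cd80 from -42 to -36 and in Havcr2 from -200 to -194, counted from the RefSeq start, and 6.75% of all 32851 promoter windows of this length held them. The NF-kB consensus, present in 7.25% of all windows, matched in Pdcd1lg2 and Icosl. The STAT letters, in 7.02% of windows, matched in Icam1, and the PU.1 core, in 23.3%, in Pdcd1lg2 and Havcr2. The paired interferon motif, in 2.98% of windows, matched in none of the 7. The window of Cd274 held none of the 5 motifs. These matches are descriptions of letters in a window, and no factor binding was measured.

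Costimulatory ligands of the B7 family were examined first for their response to periostin. Cd80, a ligand of CD28 and CTLA4, fell in 1 of the subsets. It had 152, 170, 277 and 16 reads, which is 9.53, 8.34, 16.6 and 1.44 CPM. The CD74+ periostin library stood alone at the bottom and the CD74+ vehicle library at the top. In CD74+ cells Cd80 (ENSMUSG00000075122, GRCm38 chr16:38455561-38496335, a protein-coding gene whose exons overlap no other annotated gene) was therefore 11.5-fold lower with periostin, with an exact 95% counting interval of 6.98-fold to 20.5-fold. Its log2 change, with 1 CPM added to both levels as for every log2 change here, was -2.85. That change ranked 7 from the lowest among 13865 genes compared. In ACE+ cells the ratio of periostin to vehicle was 0.875, with an interval of 0.699 to 1.10 that included 1.

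Cd86 went the other way in the same CD74+ libraries. Cd86 (ENSMUSG00000022901, GRCm38 chr16:36603869-36666081), the other ligand of CD28 and CTLA4, had 6.90, 8.34, 9.69 and 16.4 CPM. The last library was the highest of the 4. The ratio of periostin to vehicle was 1.69 (1.36 to 2.11) in CD74+ cells and 1.21 (0.945 to 1.55) in ACE+ cells, both under the limit used to call a gene risen or fallen, a 2-fold change after 1 CPM is added to both levels. Within each library, reads per length of Cd86 over those of Cd80 came to 0.336 in ACE+ vehicle, 0.465 in ACE+ periostin and 0.272 in CD74+ vehicle, against 5.31 in CD74+ periostin with an interval of 3.19 to 9.49. This ratio needs no scaling between libraries. Per deposited length Cd86 lay below Cd80 in the first 3 libraries and above it in CD74+ periostin. With the length of all annotated exons the 4 ratios were 0.732, 1.01, 0.592 and 11.6. In ACE+ periostin, where each gene had 170 reads, the levels on that length were about equal, with overlapping 95% Poisson intervals. Icosl, the ligand of ICOS, had 49.4, 47.5, 48.8 and 62.3 CPM in the same order, a ratio of 0.963 (0.876 to 1.06) in ACE+ and of 1.28 (1.15 to 1.41) in CD74+ cells.

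The receptor CD40, the surface protein CD83 and the adhesion ligand ICAM1 had no call with periostin. Cd40 had 9.03, 12.3, 6.76 and 8.43 CPM. It was higher with periostin in both subsets, at a ratio of 1.36 (1.10 to 1.68) in ACE+ and 1.25 (0.939 to 1.66) in CD74+ cells, and the second interval includes 1. Cd83 had 25.03, 30.0, 37.4 and 37.0 CPM, with ratios of 1.20 (1.06 to 1.36) and 0.987 (0.870 to 1.12). Icam1 had 62.4, 70.0, 49.7 and 72.0 CPM, with ratios of 1.12 (1.03 to 1.22) in ACE+ and 1.45 (1.31 to 1.60) in CD74+ cells. It was thus the member with the largest ratio above 1 in CD74+ cells after Cd86 and Pdcd1lg2. Of the exon length of Icam1, 11.7% overlaps the gene Gm47079, whose reads were not separable without a stated strand setting.

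Among the inhibitory ligands, the PD-1 ligands differed from each other. Cd274 (ENSMUSG00000016496, GRCm38 chr19:29367455-29388095), which encodes PD-L1, had 48.0, 53.3, 109.6 and 66.2 CPM. The CD74+ vehicle library was the highest. In CD74+ cells the level with periostin was 1.66-fold lower (1.52 to 1.81), whereas in ACE+ cells the ratio was 1.11 (1.01 to 1.22). Of its exon length, 14.1% overlaps the gene AC119228.1. Pdcd1lg2 (ENSMUSG00000016498, chr19:29410919-29471161), which encodes PD-L2 and lies on the same strand of the chromosome, had 182, 165, 33 and 33 reads, or 11.4, 8.10, 1.97 and 2.96 CPM. Its ratio of periostin to vehicle was 0.709 (0.571 to 0.880) in ACE+ and 1.5004 (0.898 to 2.51) in CD74+ cells. Reads per length of Cd274 over Pdcd1lg2 were 1.91 (1.62 to 2.26) in ACE+ vehicle and 2.99 (2.54 to 3.54) in ACE+ periostin. They were 25.2 (17.9 to 36.8) in CD74+ vehicle and 10.2 (7.17 to 14.9) in CD74+ periostin, so both CD74+ libraries lay above both ACE+ libraries.

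Vsir and Havcr2 had nearly the same level with and without periostin. Vsir (chr10:60346851-60372684) had 293, 298, 213 and 211 CPM, with ratios of 1.02 (0.980 to 1.06) and 0.993 (0.942 to 1.05). Havcr2 (chr11:46454935-46481255) had 17.7, 18.0, 32.6 and 33.2 CPM, with ratios of 1.02 (0.867 to 1.19) and 1.02 (0.889 to 1.16). All of these intervals cover counting error only and do not cover variation between cultures or animals.

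**Figure D2:**
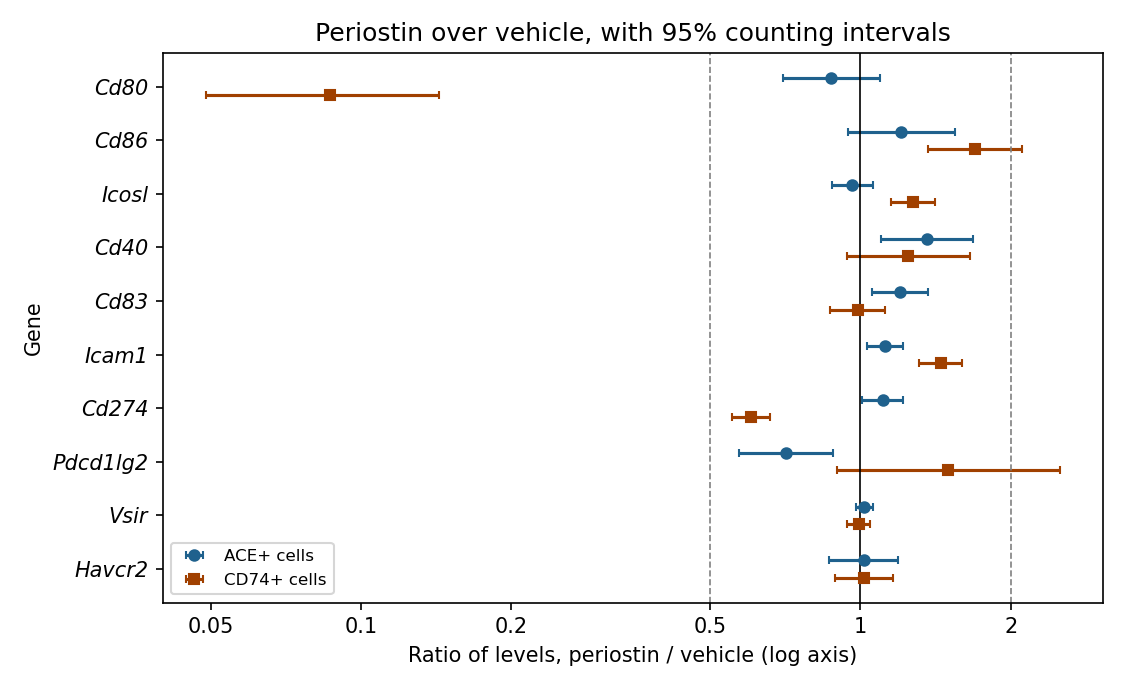
Ratio of the level with periostin to the level with vehicle (x axis, log scale) for each gene (y axis), in ACE+ cells (circles) and CD74+ cells (squares). Bars are exact 95% intervals from read counts, dashed lines mark 2-fold, and each point compares 1 library with 1 library. Cd80 in CD74+ cells, at 0.0867, is the only point beyond 2-fold.

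As a list, none of the 10 genes rose or fell at least 2-fold with periostin in ACE+ cells, where 1.47% of 14734 genes were called higher and 1.3% lower. In CD74+ cells 0 of 10 were higher and 1 of 10, Cd80, was lower, where 6.69% of 13865 genes were called higher and 5.25% lower. A single call among 10 genes is read as a value of Cd80 and not of the list. The median log2 change of the 10 was 0.086 in ACE+ cells, beside 0.0039 over all genes compared, and 0.15 in CD74+ cells, beside 0.018. In the authors' deposited table of annotation terms for genes marked as up, Cd86, Pdcd1lg2 and Icam1 were listed for CD74+ cells and none of the 10 for ACE+ cells. All 3 stood under the term extracellular exosome, with 387 genes and a Benjamini adjusted p of 1.17e-05 in the authors' deposited table, and Cd86 stood under Immunity with an adjusted p of 0.00365.

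The difference between the subsets' responses was at least 4-fold for 1 of the 10 genes. The log2 change in CD74+ cells minus that in ACE+ cells was -2.68 for Cd80. Of 13129 genes, 0.663% were called lower in this way and 0.807% higher. With 5 CPM added in place of 1, the difference for Cd80 was -1.62 and 0 of the 10 were called. For Cd274 the difference was -0.86, from 0.15 in ACE+ cells and -0.72 in CD74+ cells. Without an added CPM it was -0.88, with a counting interval of -1.06 to -0.69. Pdcd1lg2 stood at 0.86, from -0.45 and 0.41, with an interval of 0.32 to 1.84 without an added CPM. Havcr2 and Vsir stood at 0.0028 and -0.036. With 1 library per group the difference has no residual degrees of freedom, and it was not tested across samples.

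A fit over all 4 libraries, with subset as a block, asked for a periostin effect common to both subsets. It called none of the 10 genes (edgeR quasi-likelihood test, Benjamini-Hochberg adjustment over 13129 genes, 1 residual degree of freedom), where 0.0609% of genes were called higher and 0.0457% lower. At an unadjusted p under 0.05 it had 1 of the 10, Cd80, where 876 of all 13129 genes were under that limit. Cd80 had a log2 change of -1.70 with a standard error of 0.55. Its ratio was below 1 in 2 of 2 subsets, but in ACE+ cells, at 0.875, the interval of 0.699 to 1.10 included 1. The adjusted p of Cd80 was 0.30 in edgeR. DESeq2 called none of the 10 either. It gave Cd80 an unadjusted p of 0.011 and an adjusted p of 0.9999, where 435 of 13129 genes had an unadjusted p under 0.05. In this fit an unequal response of the subsets counts as error.

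Several values moved with the low level of Cd80 in CD74+ periostin. That library had the fewest reads. Of 10500 genes at 5 CPM or more in CD74+ vehicle, 20 were at least 10-fold lower with periostin, 0.190%, against 2 of 10953 in ACE+ cells, 0.0183%. Macrophage markers went both ways between CD74+ vehicle and CD74+ periostin. Mertk stood at 14.5 and 3.77 CPM and Adgre1 at 34.9 and 19.4. Cd68 stood at 1191 and 1327, Cd14 at 215 and 332 and Fcgr1 at 6.58 and 11.4. T cell genes that normally go together did not: Cd3d went from 12 reads to 0 and Cd3g from 2 to 0, while Cd3e went from 0 to 28 and Trac from 6 to 38. Dendritic cell markers summed to 428 and 499.8 CPM. Flt3 stood at 13.1 and 10.9, whereas Irf4 stood at 6.40 and 15.6 and Clec9a at 12.9 and 17.3. Neutrophil markers summed to 12911 and 20474 CPM, with S100a8 at 5070 and 9038 and Mmp8 at 196 and 177. Chondrocyte markers summed to 1376 and 992, with Col10a1 at 169 and 6.01 and Col9a1 at 6.58 and 13.5. Endothelial markers summed to 585 and 501, with Kdr at 70.0 and 29.1 and Esam at 31.4 and 64.1. The part of these shifts in the level of Cd80 was not tested. The median log2 change of all genes in CD74+ cells also differed by deposited gene length. It was 0.30 in the decile that holds Cd80, whose deposited length is 1701 bases. All annotated exons of Cd80 come to 3703 bases. In the decile that holds Cd86, with a deposited length of 3661 bases, the median was -7.4e-05. With the trend of log2 change over deposited length removed, the log2 change of Cd80 in CD74+ cells was -3.05. Its difference from the change in ACE+ cells was then -2.85. Beyond this setting, the part of length in the level of Cd80 was not tested.

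The genes beside Cd80 on chromosome 16 had ratios above 1. In CD74+ cells the ratio of periostin to vehicle was 1.06 (0.992 to 1.13) for Adprh and 1.73 (1.47 to 2.05) for Timmdc1, the nearest listed protein-coding genes on either side, and 1.12 (0.998 to 1.26) for Poglut1. Over the 4 libraries, the 5 genes with the most similar profile to Cd80 were Nbas, Palb2, Prn, Wnt10b and Reps2. Likeness was the Euclidean distance between log2 levels centred on their own means, among genes with at least 5 CPM in the highest library, and it ran from 0.27 for Nbas to 0.51 for Reps2. Nbas had 12.5, 13.6, 20.8 and 2.51 CPM. Palb2 had 4.89, 4.42, 7.59 and 0.0897, the last being 1 read.

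Differences between the subsets themselves were tested in the same fit, with treatment as a block, and here 3 of the 10 genes were called. Cd274 and Havcr2 were higher in CD74+ than in ACE+ cells, and Pdcd1lg2 was lower. The log2 difference was 0.76 with a standard error of 0.22 for Cd274 (edgeR adjusted p = 0.0064), 0.89 with 0.29 for Havcr2 (edgeR adjusted p = 0.018) and -1.99 with 0.60 for Pdcd1lg2 (edgeR adjusted p = 0.00995). Each held its direction in 2 of 2 treatments. With DESeq2 Havcr2 missed the threshold (DESeq2 adjusted p = 0.054). Over all genes 6.23% were called higher and 9.15% lower, against 2 of 10 and 1 of 10 members. Vsir, lower in CD74+ cells in both treatments, had a log2 difference of -0.47 with a standard error of 0.18 and missed the threshold (edgeR adjusted p = 0.060). The other 6 members had edgeR adjusted p-values from 0.28 for Cd83 to 0.76 for Icam1. As no group had a second library, the residual of this fit was the unequal response of the subsets, with variance shared between genes. Vehicle and periostin cultures of a subset may share a sort, which the labels do not say. These p-values therefore do not cover the spread between cultures, sorts or animals.

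With vehicle alone, Cd274 was 2.28-fold higher in CD74+ than in ACE+ cells (2.10 to 2.48) and Pdcd1lg2 was 5.79-fold lower (3.98 to 8.66). These were the only 2 members past 2-fold, 1 in each direction, where 3.64% of 13393 genes were called higher and 7.73% lower. Havcr2 stood at a ratio of 1.85 (1.60 to 2.14), Cd80 at 1.74 (1.42 to 2.13), Cd83 at 1.495 (1.32 to 1.70) and Cd86 at 1.40 (1.10 to 1.81). Vsir stood at 0.727 (0.696 to 0.760), Icam1 at 0.797 (0.726 to 0.875) and Cd40 at 0.748 (0.579 to 0.964), and for Icosl, at 0.989 (0.896 to 1.09), the interval included 1. The median log2 difference of the 10 was 0.21, beside -0.00081 over all genes.

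With periostin, Pdcd1lg2 was 2.73-fold lower in CD74+ cells (1.87 to 4.10) and Cd80 was 5.81-fold lower (3.48 to 10.4), 2 of 10 members, where 10.4% of 13681 genes were called lower. None of the 10 was called higher, where 6.94% of genes were. Cd86 came closest, at a ratio of 1.97 (1.59 to 2.44), followed by Havcr2 at 1.85 (1.60 to 2.14), the same ratio as with vehicle. Cd274 stood at 1.24 (1.13 to 1.37) and Vsir at 0.709 (0.676 to 0.744). The median log2 difference was 0.17, beside 0.0026 over all genes. Comparisons with vehicle and with periostin between subsets use the same libraries as the periostin comparisons, so the values of a gene in them are not independent of each other.

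**Figure D3:**
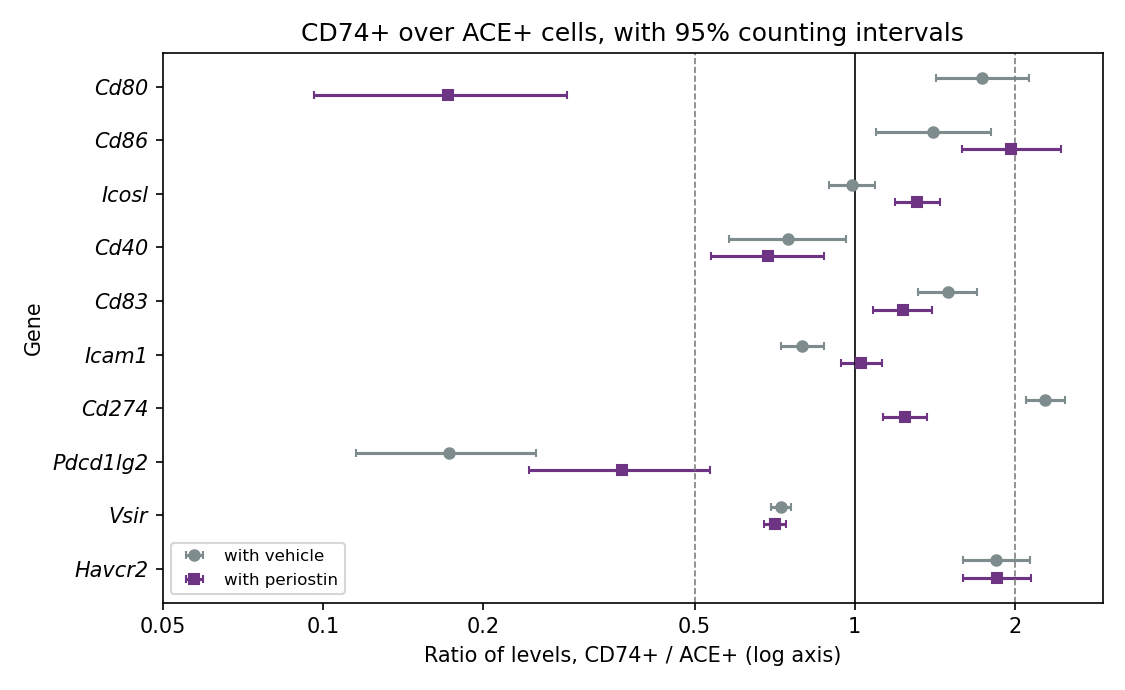
Ratio of the level in CD74+ cells to that in ACE+ cells (x axis, log scale) for each gene (y axis), with vehicle (circles) and with periostin (squares). Bars are exact 95% intervals from read counts and dashed lines mark 2-fold. Pdcd1lg2 lies below 0.5 and Havcr2 at 1.85 in both treatments, while Cd80 goes from 1.74 to 0.172.

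B cell markers moved with the subset. Of the 10 in the list, 9 were listed, and the most abundant, Ighm, had 771, 839, 97.6 and 84.5 CPM. Pax5 had 11.2 and 14.5 CPM in the ACE+ libraries and 0 reads in both CD74+ libraries, where 3 reads, the limit that a count of 0 allows, would be 0.179 and 0.269 CPM. Cd22 and Ebf1 were at 0 reads in CD74+ periostin. Dendritic cell markers went both ways. Ccr7, the most abundant, had 113, 125, 170 and 214 CPM, whereas Cd209a stood at 12.1 and 12.2 CPM against 0.179 and 0.449 and Irf4 at 52.8 and 41.2 against 6.40 and 15.6. Fibroblast and osteoblast markers, led by the collagen I genes, summed to 1074, 885, 370.2 and 328 CPM. Chondrocyte markers, led by Col2a1, summed to 244 and 829 CPM against 1376 and 992, and mast cell and basophil markers to 98.8 and 109 against 120.2 and 94.9. Neutrophil markers summed to 23874 and 28776 CPM against 12911 and 20474. B cells and dendritic cells can express several of the 10 genes. The part of these cells and of neutrophils in the levels of Pdcd1lg2, Cd274 and Havcr2 was not tested.

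**Figure D4:**
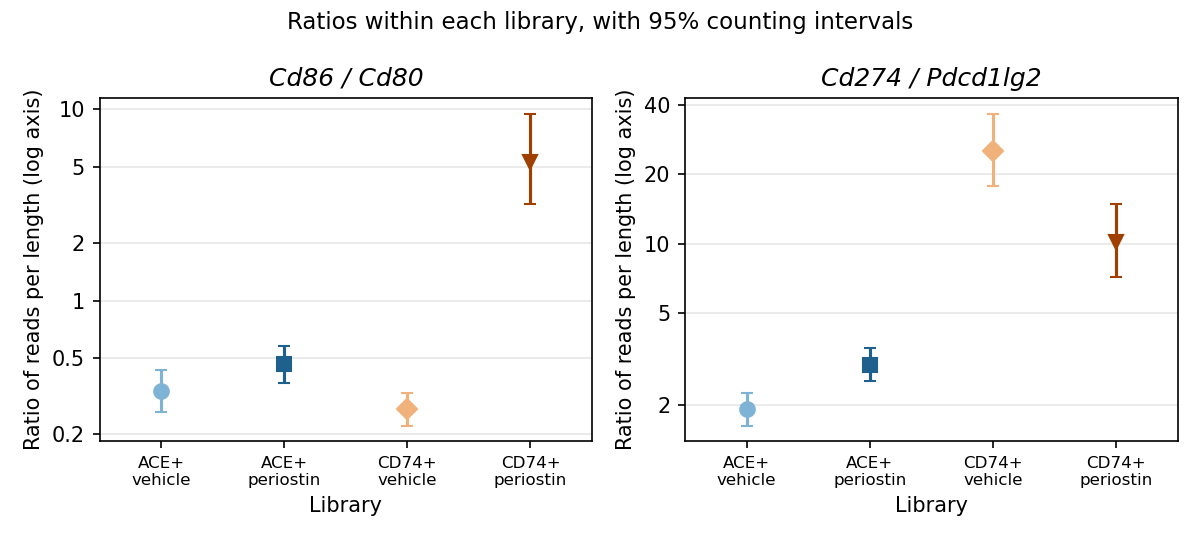
Ratio of reads per deposited gene length within each library (y axis, log scale) for Cd86 over Cd80 (left) and Cd274 over Pdcd1lg2 (right), with 1 point per library (x axis) and exact 95% counting intervals. Cd86 over Cd80 is 5.31 in CD74+ periostin and below 0.5 elsewhere, and Cd274 over Pdcd1lg2 is 10.2 or more in CD74+ and below 3 in ACE+ libraries.

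Other genes of the same pathways were followed in 5 lists. Of 23 other costimulatory, checkpoint and adhesion ligands, 16 were compared in ACE+ and 14 in CD74+ cells, and none was called with periostin in either. The background for each list is the share of all genes: for ACE+ cells 1.47% were called higher and 1.3% lower, and for CD74+ cells 6.69% were called higher and 5.25% lower. The median log2 change of the other ligands was 0.11 in ACE+ and -0.18 in CD74+ cells, beside 0.0039 and 0.018 over all genes. Cd200, the ligand of an inhibitory myeloid receptor, had the lowest value in CD74+ cells, at 30.3 CPM with vehicle and 15.3 with periostin. Tnfsf14, a ligand of the TNF family, had the highest there, at 24.0 and 34.1. In ACE+ cells Nectin2, a ligand of DNAM-1 and TIGIT, stood at 1.82 and 3.97 CPM, a ratio of 2.18 (1.41 to 3.46) that was under the limit once 1 CPM was added. Cd47, which signals through SIRPA, stood at 243 and 197.

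Signalling below CD40 showed no call with periostin, with 0 of 16 genes called in both subsets and medians of 0.11 in ACE+ and -0.18 in CD74+ cells. In ACE+ cells the NF-kB subunit gene Relb had the highest ratio, 1.40 (1.29 to 1.52), and the adaptor gene Traf5 the lowest, 0.790 (0.687 to 0.908). In CD74+ cells the inhibitor gene Nfkbia stood at 146 CPM with vehicle and 209 with periostin, and Tnfaip3, which encodes the feedback enzyme A20, at 60.4 and 34.6. Of 13 compared genes of interferon gamma signalling and its targets, none was called in ACE+ cells and 1 in CD74+ cells. It was Ciita, the transactivator of MHC class II genes, which fell from 7.77 to 2.78 CPM, 2.80-fold (1.88 to 4.28). The guanylate-binding protein gene Gbp3 had the highest value there, at 9.98 and 19.6 CPM. In ACE+ cells Ciita was highest, at 10.0 and 12.3 CPM, and Socs1, a feedback inhibitor of JAK kinases, lowest, at 10.4 and 5.35.

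Among 10 genes for regulators of the CD86, PD-L1 or TIM-3 proteins, 0 were called in ACE+ and 1 in CD74+ cells. It was March1, the ubiquitin ligase that removes MHC class II and CD86 from the cell surface, which fell from 8.13 to 1.61 CPM in CD74+ cells, 5.04-fold (3.07 to 8.75). Its symbol is stored as a date in the deposited table, and it was identified by its gene ID. It had 136 reads with vehicle and 18 with periostin, and in ACE+ cells it stood at 12.5 and 16.2 CPM. Cmtm6, which stabilises the PD-L1 protein, had 157 and 135 CPM in ACE+ cells. In the fit between subsets Cmtm6 was lower in CD74+ cells by a log2 difference of -0.82 with a standard error of 0.19 (edgeR adjusted p = 0.00044), and March1 by -1.85 with 0.52 (edgeR adjusted p = 0.0045), each lower in 2 of 2 treatments. No gene of the 5 lists was called for a common periostin effect in edgeR. Between subsets the genes called higher and lower in CD74+ cells were 1 and 1 of 14 other ligands, 1 and 2 of 16 for CD40 signalling, 1 and 1 of 13 for interferon gamma, and 1 and 3 of 10 regulators, where 6.23% and 9.15% of all genes were called.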

How the data were processed

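RNA was measured by sequencing of 4 libraries, 1 per group. Reads were aligned with HISAT2 to GRCm38, per the submitters' processing notes (no versions named). Counting tool, annotation and strand setting were not given in the sources used here, which matters for overlapping genes. The signal values in the deposited tables are, from the values themselves, whole reads per gene divided by 1 factor per library: 100% came out whole within 0.001 read, and these recovered reads were used as counts. The deposited mean over the 4 libraries gave the reads of genes left out of 1 table for 2969 genes and not for 165. The deposited log2 fold changes, whose column headers name the subset and no direction, were not used for any result. Fold changes in the text were recomputed. Enrichment p-values were taken as deposited in the authors' term tables.

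Levels were divided by the mean scaled total, 15573211, and multiplied by 1000000. A gene was compared where its higher library had at least 1 CPM and was called at 2-fold, or at 4-fold for the difference of responses, on log2(CPM + 1), which understates changes of low genes. Fold changes carry exact conditional binomial 95% intervals (scipy 1.17.1). Across libraries, recovered counts were fitted with edgeR 4.0.16 (R 4.3.3), quasi-likelihood test, TMM, subset and treatment as terms, Benjamini-Hochberg adjustment and a threshold of 0.05. DESeq2 1.42.0 was an alternative. Gene positions are from GENCODE M21. All 10 members are named, with some of the extreme and called genes of each of 5 pathway lists and the 5 profiles nearest to Cd80. Not every extreme or called gene of the lists is named. Single marker genes, neighbouring genes and further list members named beside a result were chosen after their values were seen. The members and lists were chosen with earlier results of these data known.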

Additional observations from a re-analysis of the deposited data

Results flagged for a closer look

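The periostin response of Cd80 differed between the subsets by -2.68 on the log2 scale (CD74+ minus ACE+), from -0.17 in ACE+ cells and -2.85 in CD74+ cells. It is listed because the responses were at least 4-fold apart, and it rests on 16 reads in CD74+ periostin. Cd274 differed by -0.86, from 0.15 in ACE+ cells and -0.72 in CD74+ cells. It is listed because the responses had opposite signs and both counting intervals left out a ratio of 1. Neither difference was tested across samples, as each group held 1 library.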

How the results depend on the processing

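No paired analysis was possible because each group held 1 library, so no replicate number beyond the single one could pair libraries (the 4-library fit has subset and treatment as its terms); leaving out a library removes a group, so it was not run. With 5 CPM added in place of 1, the members lower in CD74+ than in ACE+ cells with periostin went from 2 to 1, as Pdcd1lg2 then stood at -0.72. Those with a lower response in CD74+ cells went from 1 to 0, as Cd80 stood at -1.62. Members higher by subset went from 2 to 1 with DESeq2, in which Havcr2 had an adjusted p of 0.054. Members lower by subset went from 1 to 2 with no filter, where Vsir was added (edgeR adjusted p = 0.044), and to 0 at a minimum of 5 CPM, where Pdcd1lg2 was not tested. The other 81 values of this kind kept their call, and none reversed. Scaling by library totals moved the median of all genes between subsets with periostin by -0.12, and Icam1 there went from 0.042 to -0.087. Genes called with periostin in ACE+ cells were 644 higher and 574 lower with 0.1 CPM added and 19 and 9 with 5 CPM; in CD74+ cells they were 1463 higher with 0.1 CPM, and 126 higher and 209 lower with 5 CPM. DESeq2 called 2 genes higher and 0 lower for a common periostin effect, against 8 and 6. Depth limits the low members: 1 read in CD74+ periostin was 0.0897 CPM.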

Other observations

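Receptors that bind these ligands or related ones were also present. Of 13 in the list, 8 were compared, and none was called with periostin in either subset. Cd226, an activating receptor of nectins, had the lowest value with periostin in both. Its ratio was 0.609 (0.560 to 0.661) in ACE+ and 0.581 (0.486 to 0.693) in CD74+ cells, and its edgeR adjusted p for a common periostin effect was 0.33. The highest values were those of Tnfrsf4 in ACE+ cells, 1.85 (1.43 to 2.41), and Tnfrsf9 in CD74+ cells, 1.60 (1.31 to 1.94). Between subsets 4 were called in the 4-library fit, 1 higher and 3 lower in CD74+ cells. Of all genes, 6.23% were called higher and 9.15% lower in that fit. Cd28, the receptor of CD80 and CD86, was higher in CD74+ cells, at 21.2 and 52.0 CPM with vehicle, with a log2 difference of 1.09 and a standard error of 0.26 (edgeR adjusted p = 0.00044). Btla, an inhibitory receptor, was lower, at 11.7 and 1.14 CPM with vehicle, by -3.10 with 0.67 (edgeR adjusted p = 8.0e-05). Cd226 was lower by -1.62 with 0.25 (edgeR adjusted p = 7.2e-09), and Lag3, which binds MHC class II, by -1.58 with 0.49 (edgeR adjusted p = 0.013). B cell markers, among cells that carry BTLA, were lower in the same libraries, with Ighm at 771 and 97.6 CPM with vehicle, and their part in these levels was not tested.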
